A study of Mus musculus with 90 samples.

Results

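The genes described here encode the switch that lets pyruvate enter mitochondrial oxidation in the liver: the 4 pyruvate dehydrogenase kinases Pdk1, Pdk2, Pdk3 and Pdk4, the phosphatase catalytic subunits Pdp1 and Pdp2, the enzyme subunit that both act on, Pdha1, and the mitochondrial pyruvate carriers Mpc1 and Mpc2. They were taken by symbol from a table of liver RNA-seq levels, 9 of its 24312 gene symbols, and the RefSeq transcript with the highest mean stood for each gene. The pyruvate dehydrogenase complex turns pyruvate into acetyl-CoA. The kinases phosphorylate the alpha subunit encoded by Pdha1 and so switch the complex off, the phosphatases remove that phosphate, and Mpc1 and Mpc2 together form the carrier that brings pyruvate across the inner mitochondrial membrane. Pdk4 is known in liver and muscle as a kinase gene that is induced by fasting and held down by insulin.

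The study used 54 RNA libraries, each from the liver of 1 mouse, in 16 groups and 5 experiments that ask how the glucocorticoid receptor (GR) and the insulin-restrained transcription factor FOXO1 act on liver genes before and after a meal. All mice were on night-restricted feeding (NRF), in which food was given at Zeitgeber time (ZT) 12, the start of the dark phase, for 4 days, and livers were taken at ZT14 unless stated. In the NRF experiment, 10-week-old male C57BL/6N mice were taken unfed at ZT10, unfed at ZT14 or fed at ZT14, with 2 libraries a group. In the injected mice, the groups were unfed PBS, fed PBS, fed dexamethasone (DEX, a synthetic glucocorticoid, 1 mg/kg), fed S961 (a peptide antagonist of the insulin receptor) and fed DEX+S961, with 4 libraries a group and injections 30 minutes before the food. In the receptor knockout, mice homozygous for a floxed GR allele received an adeno-associated virus that expressed Cre (CRE, 4 libraries) or GFP (4 libraries) from the liver-specific Tbg promoter, and all of them were unfed. In the insulin receptor substrate experiment, mice with floxed Irs1 and Irs2 and an albumin-promoter Cre (IRSdKO, 4 libraries) were set against floxed mice (IRSfl, 4 libraries), and every mouse of both groups was fed and had received DEX. In the obesity experiment, mice had a high-fat diet with 60% of energy from fat (DIO) or chow (lean) for 10 weeks from 5 weeks of age, and were then unfed or fed, with 3 libraries a group. By the study's methods, the injected mice were 10-week-old C57BL/6N and the floxed GR mice were adults on a C57BL/6N background. The IRSdKO mice were 10 weeks old on a C57BL/6J background, and the mice of the obesity experiment were male. In every group the liver was whole tissue, so fewer cells of a type and less RNA per cell cannot be told apart.

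Levels are RPKM, read counts scaled to transcript length and to the mapped reads of the library, as the authors deposited them. The table holds no read totals, and the sequenced reads that the study lists for its libraries were not used here, so no counting interval is given. Each library listed between 14140 and 16721 symbols above 0. Differences are log2 fold changes of RPKM + 0.5 from limma, given with their standard error and, in brackets, the 95% interval, and the adjusted p is the Benjamini-Hochberg value over every gene whose mean over the experiment reached 0.5 RPKM. The threshold on it was 0.01 in the NRF and obesity experiments and 0.05 in the others, after the study's own choices.

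Pieces of sequence that the 2 factors occupied near these genes are shown first, since the later account of peaks turns on them. They come from the lists of GR and FOXO1 binding peaks of unfed ZT14 liver, are read from the mm9 genome in the gene's direction, and were picked to show peaks near a start site, GR peaks with a half-site and peaks shared by both factors, outside exons. Capitals mark letters of the motifs searched, the GR half-site TGTTCT in GR peaks and the FOXO core TGTTTAC in FOXO1 peaks, either strand, and a peak with no capitals held neither.
Pdk4, FOXO1 peak at chr6:5446540-5446719, minus strand: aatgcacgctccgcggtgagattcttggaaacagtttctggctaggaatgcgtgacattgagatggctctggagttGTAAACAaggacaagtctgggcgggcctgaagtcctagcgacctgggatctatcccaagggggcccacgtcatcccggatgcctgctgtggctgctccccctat
Pdk4, GR peak at chr6:5460976-5461155, minus strand: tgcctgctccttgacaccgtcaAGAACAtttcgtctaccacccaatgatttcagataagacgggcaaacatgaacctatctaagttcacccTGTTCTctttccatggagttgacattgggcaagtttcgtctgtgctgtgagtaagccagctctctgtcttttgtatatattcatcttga
Pdk4, GR peak shared with FOXO1 at chr6:5421039-5421218, minus strand: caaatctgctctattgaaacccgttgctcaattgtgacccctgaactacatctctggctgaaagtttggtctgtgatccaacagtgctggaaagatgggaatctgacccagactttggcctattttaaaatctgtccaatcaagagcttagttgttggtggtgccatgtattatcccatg
Pdk2, FOXO1 peak at chr11:94902755-94902934, minus strand: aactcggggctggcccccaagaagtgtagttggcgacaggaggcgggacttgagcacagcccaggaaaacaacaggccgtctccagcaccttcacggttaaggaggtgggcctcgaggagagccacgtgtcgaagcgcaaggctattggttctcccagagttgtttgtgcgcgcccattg
Pdk2, GR peak at chr11:94900904-94901083, minus strand: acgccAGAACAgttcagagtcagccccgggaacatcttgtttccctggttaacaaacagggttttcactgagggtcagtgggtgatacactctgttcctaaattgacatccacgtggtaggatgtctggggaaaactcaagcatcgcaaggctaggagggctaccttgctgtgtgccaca
Mpc1, GR peak shared with FOXO1 at chr17:8465921-8466100, plus strand: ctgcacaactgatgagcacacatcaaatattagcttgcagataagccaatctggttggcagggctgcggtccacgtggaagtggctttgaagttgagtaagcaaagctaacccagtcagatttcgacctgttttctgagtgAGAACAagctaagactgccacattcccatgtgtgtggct

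A few facts of the libraries touch the results. The receptor targeted in the knockout was measured as labelled: Nr3c1, which encodes GR, stood at 3.93 to 5.35 RPKM with CRE and 12.8 to 16.2 with GFP. Irs1 stood at 0.149 to 0.321 RPKM in IRSdKO and 2.21 to 4.73 in IRSfl, whereas Irs2 overlapped between them (0.272 to 1.00 and 0.614 to 5.61). Hepatocyte markers were present in every library, at a sum of 2403 to 75056 RPKM over 6 genes. The unfed ZT14 replicate 2 of the NRF experiment also held skeletal muscle RNA: the 5 markers Ckm, Acta1, Mylpf, Tnnt3 and Myh4 summed to 197 RPKM there and to at most 1.93 in each of the other libraries. In the injected mice, replicate 4 of each group was treated as a library series apart from replicates 1 to 3. The sample titles give replicate numbers and do not name such a series. In the insulin receptor substrate experiment, the highest RPKM of any gene was 674 to 914 per library, against 18853 to 60597 in the other experiments, and the NRF libraries were depleted of ribosomal RNA where the others were selected for poly(A), so levels are compared within experiments and the experiment cannot be told apart from the library method.

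Of the 7 genes above the filter, Pdk4 ranged most widely within each experiment, its highest library 9.42 to 44.3 times its lowest. Across the experiments together, which differ in scale, it again ranged most widely and Mpc2 least. Over all 54 libraries, Mpc2 had a median of 108 RPKM, Pdha1 50.9, Pdk2 44.8, Mpc1 19.3, Pdk1 18.5 and Pdp2 10.3. Pdk4 had a median of 1.49 RPKM but a range from 0.339 to 51.6, whereas Mpc2 ranged from 72.6 to 163. Pdk2 (5.26 to 69.7 RPKM) and Mpc1 (7.30 to 93.0 RPKM) also covered a wide range, most of it between experiments, as described below. Pdk3 and Pdp1, the other kinase and phosphatase, had medians of 0.131 and 0.228 RPKM, fell below the filter in each of the 5 experiments and were not tested, so 7 of the 9 genes were.

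**Figure D1:**
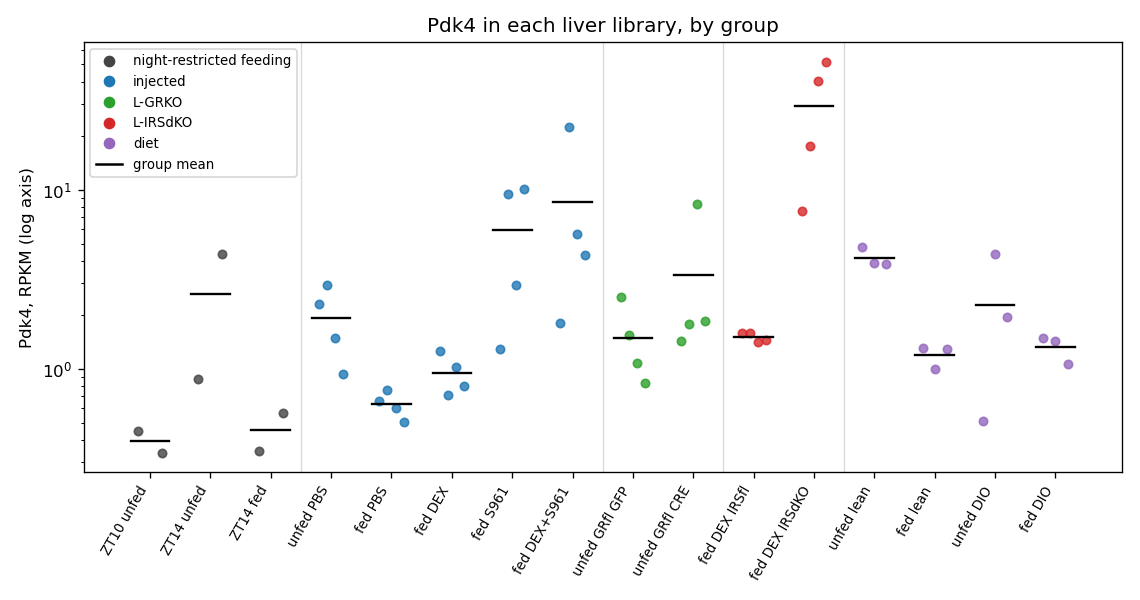
Pdk4 in every library, as RPKM on a log axis, with the 16 groups along the horizontal axis and 1 point for each mouse. The IRSdKO mice lie between 7.61 and 51.6 RPKM, above the IRSfl mice at 1.42 to 1.59, and the fed S961 and DEX+S961 mice lie above the fed PBS mice at 0.505 to 0.764.

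Counted by comparison, few of the 7 tested genes passed. After a meal in the PBS-injected mice, 1 fell (Pdk1), where 3.13% of all genes passed. With DEX+S961 against PBS in fed mice, 1 rose (Pdk4), where 10.6% of all genes passed. In IRSdKO against IRSfl, 3 rose (Pdk4, Pdha1 and Mpc2), where 17.4% of all genes passed. None passed with DEX (0 of 7, and 3.19% of all genes), with S961 (0 of 7, and 1.9%), in the GR knockout (0 of 7, and 6.68%), with time without food from ZT10 to ZT14 (0 of 7, and 1.16%) or after the meal in the NRF experiment (0 of 7, and 0.99%). In the obesity experiment none passed after the meal in lean mice (0 of 7, and 10.2%) or in obese mice (0 of 7, and 1.22%), nor between obese and lean mice when unfed (0 of 7, and 0.77%) or fed (0 of 7, and 0%). None passed for the difference of the DEX effect with and without S961 (0 of 7, and 0%) or of the meal effect between diets (0 of 7, and 0.131%). At an unadjusted limma p under 0.05 the 7 genes numbered 3 with S961, in the GR knockout, with time and after the meal in lean mice, 2 after the meal in NRF, in obese mice and between fed obese and lean mice, 1 between unfed obese and lean mice and for the meal effect between diets, and 0 with DEX and for the DEX and S961 difference. Over all genes tested in limma, 1605 of 11251 were under 0.05 unadjusted with S961, 2345 of 11649 in the GR knockout and 2876 of 10907 with time. After the meal they were 4147 of 11434 in lean mice, 2878 of 11434 in obese mice and 3021 of 10907 in NRF. Between obese and lean mice they were 2624 of 11434 unfed and 2284 of 11434 fed. They were 1713 of 11434 for the meal effect between diets and 2085 of 11251 with DEX. For the DEX and S961 difference they were 513 of 11251. No gene at all passed for that difference or between fed obese and lean mice. The median over the 7 genes was -0.46 after the meal in PBS-injected mice (0.10 over all genes tested), 0.35 in the GR knockout (0.08 over all genes) and 0.26 in IRSdKO (0.03 over all genes).

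Pdk4 (NM_013743, mm9 chr6:5433351-5446309, minus strand), the kinase gene of the fasted state, was higher than in IRSfl mice in the mice labelled IRSdKO, in which Irs1 was low and Irs2 overlapped the controls. In IRSdKO mice it stood at 7.61, 17.5, 40.7 and 51.6 RPKM, and in IRSfl mice at 1.59, 1.59, 1.42 and 1.44. Every IRSdKO library was above every IRSfl library, and the group means differed 19.4-fold. The fitted log2 difference was 3.56 ± 0.51 [2.42, 4.70], with an adjusted p of 0.00429 in limma. The 4 IRSdKO mice themselves spanned a wide range, and the lowest of them was the library with the most pancreas marker RNA, 17.9 RPKM summed over 5 genes. The cholangiocyte markers did not overlap between these groups either (7.87 to 13.9 RPKM summed over 5 genes in IRSdKO, 19.7 to 46.2 in IRSfl), and their part in the result was not tested.

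In the injected mice, every fed PBS library lay below the unfed PBS group and both S961 groups in Pdk4, and only the DEX+S961 difference passed. Fed PBS mice had 0.664, 0.764, 0.603 and 0.505 RPKM, and fed DEX mice 1.26, 0.715, 1.02 and 0.803. Fed S961 mice had 1.28, 9.43, 2.94 and 10.0 RPKM, and fed DEX+S961 mice 1.80, 22.3, 5.67 and 4.32. Both S961 groups lay wholly above the fed PBS group, whereas the DEX group overlapped it. These 3 comparisons share the fed PBS libraries. Fed PBS levels were close to the 0.5 RPKM that was added before the log, which makes fitted changes smaller. Mean RPKM was 9.34 times that of fed PBS with S961 and 13.5 times with DEX+S961. The fitted folds, which also average on the log scale, were 4.45 and 5.56. With DEX+S961 the log2 difference was 2.48 ± 0.56 [1.30, 3.65] and passed (adjusted p = 0.00823, limma). With S961 it was 2.16 ± 0.56 [0.98, 3.33] and did not pass (adjusted p = 0.0559, limma), though it did without S961 replicate 1 (adjusted p = 0.0109) and without DEX+S961 replicate 1 or 2, which share the fit (adjusted p = 0.0340 and 0.0170). Of 20 fits with a library left out, the S961 difference passed in these 3. DEX alone gave 0.34 ± 0.56 [-0.83, 1.52] (adjusted p = 0.8003, limma). The difference between the DEX effect with and without S961 was -0.02 ± 0.79 [-1.68, 1.64], an interval that leaves room for several-fold changes either way. With the library series as a further term, Pdk4 also passed with S961 (adjusted p = 0.0362, limma). In replicates 1 to 3 alone, chosen after the data were seen, DEX+S961 gave 2.55 ± 0.66 (adjusted p = 0.0258) and S961 1.74 ± 0.66 (adjusted p = 0.223). Summed Kupffer cell and macrophage markers were 92.0 to 115 RPKM in fed PBS livers. They were 53.7 to 81.8 with S961, 62.9 to 82.9 with DEX+S961 and 49.7 to 91.3 with DEX, all below the fed PBS livers. Their part in the Pdk4 values was not tested.

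The fitted meal difference of Pdk4 was negative in the NRF, PBS-injected and lean mice and passed in none of them. Unfed PBS mice had 2.29, 2.94, 1.49 and 0.933 RPKM, all above the fed PBS mice, and the log2 difference of fed against unfed was -1.02 ± 0.56 [-2.19, 0.16] (adjusted p = 0.337, limma). Summed Kupffer cell and macrophage markers were apart there, at 63.4 to 74.3 RPKM unfed and 92.0 to 115 fed, and their part was not tested. Unfed lean mice had 4.80, 3.87 and 3.86 RPKM and fed lean mice 1.30, 1.00 and 1.30, again with no overlap. Summed markers of other cells were apart in these mice too: sinusoidal endothelial cells at 54.3 to 65.6 RPKM unfed and 39.3 to 46.3 fed, stellate cells at 58.2 to 94.9 and 42.2 to 57.7, and cholangiocytes at 10.5 to 12.8 and 13.8 to 20.9. Their part in the result was not tested. There the Pdk4 difference was -1.46 ± 0.41 [-2.37, -0.55], with an adjusted p of 0.0265 against a threshold of 0.01. With a library left out it passed in 2 of 12 fits (adjusted p = 0.00132 and 0.00425, limma). Those lacked unfed DIO replicate 1 or 2, which is outside the comparison but shares the estimate of spread. In NRF, the unfed ZT14 mice had 0.878 and 4.36 RPKM, the ZT10 mice 0.448 and 0.339 and the fed mice 0.347 and 0.566. The higher of the unfed pair was the library with muscle RNA, and the part of that RNA in the value was not tested. With both libraries, the NRF meal difference was -1.45 ± 0.50 (adjusted p = 0.119, limma) and the difference from ZT10 was 1.54 ± 0.50 (adjusted p = 0.105). Without the library with muscle RNA they were -0.54 ± 0.22 (adjusted p = 0.251) and 0.63 ± 0.22 (adjusted p = 0.186), and with it as the only unfed ZT14 library they were -2.35 (adjusted p = 0.000994) and 2.45 (adjusted p = 0.000976). That lone library was assumed to vary like the other groups.

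In obese mice the Pdk4 values before the meal were scattered. Unfed DIO mice had 0.509, 4.37 and 1.94 RPKM and fed DIO mice 1.49, 1.42 and 1.07, so the groups overlapped. The meal difference was -0.33 ± 0.41 [-1.24, 0.57] (adjusted p = 0.668, limma). Its difference from the meal effect in lean mice was 1.13 ± 0.58 [-0.16, 2.41] and did not pass (adjusted p = 0.394, limma). Unfed DIO replicate 2, the highest, also held the adipocyte gene Cfd at 27.5 RPKM, while the defining adipocyte markers Adipoq, Plin1 and Lep were at 0 in it. Without that library the meal difference in obese mice turned to 0.21 (adjusted p = 0.714), and unfed obese against unfed lean mice went from -1.02 ± 0.41 (adjusted p = 0.170) to -1.57 ± 0.30 (adjusted p = 0.0276, limma), which still missed the threshold. With all libraries, sinusoidal endothelial markers summed to 30.9 to 39.3 RPKM in unfed obese and 54.3 to 65.6 in unfed lean mice, cholangiocyte markers to 14.4 to 25.4 and 10.5 to 12.8, and hepatocyte markers to 44514 to 52167 and 54082 to 63990. These did not overlap, and their part was not tested.

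In the GR knockout Pdk4 did not separate. CRE livers had 1.44, 1.77, 8.30 and 1.86 RPKM and GFP livers 2.50, 1.55, 1.08 and 0.834. The difference was 0.70 ± 0.44 [-0.26, 1.67] (adjusted p = 0.422, limma), and 0.20 ± 0.25 (adjusted p = 0.740) without CRE replicate 3. Within the injected mice, the order of mean Pdk4 levels was fed PBS (0.634 RPKM), fed DEX (0.949), unfed PBS (1.91), fed S961 (5.92) and fed DEX+S961 (8.53), and each neighbouring pair overlapped in its single libraries. In the obesity experiment it was fed lean (1.20), fed DIO (1.33), unfed DIO (2.27) and unfed lean (4.17), again with overlap between all neighbours.

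**Figure D2:**
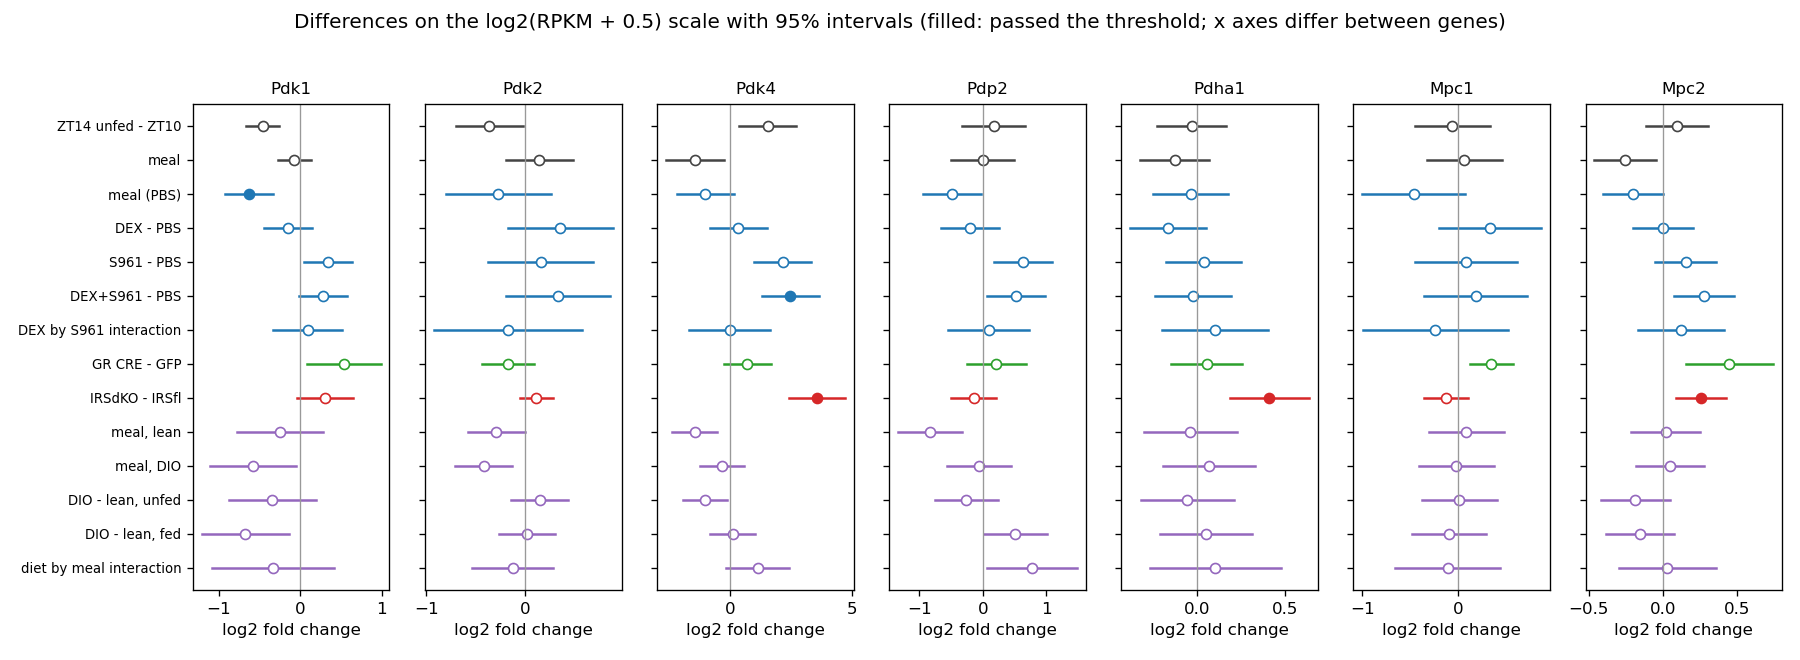
Log2 fold change of RPKM + 0.5 for each of the 7 tested genes in the 14 comparisons, with bars for the 95% interval from limma and marks for those that passed the threshold of their experiment. The 5 that passed are Pdk4 in IRSdKO (3.56) and with DEX+S961 (2.48), Pdha1 (0.41) and Mpc2 (0.26) in IRSdKO, and Pdk1 after the meal in PBS-injected mice (-0.63).

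Pdk1 (NM_172665, mm9 chr2:71711281-71741915, plus strand), a kinase gene best known as a target of hypoxia-inducible factor, was lower after the meal in the PBS-injected mice. Unfed PBS mice had 28.4, 24.8, 23.4 and 19.6 RPKM and fed PBS mice 17.2, 12.8, 18.9 and 12.9, with no overlap. The difference was -0.63 ± 0.14 [-0.93, -0.33] (adjusted p = 0.0240, limma), and -0.64 ± 0.13 (adjusted p = 0.0148) in replicates 1 to 3 alone. It missed the threshold when fed PBS replicate 2 or unfed PBS replicate 1, 2 or 3 was left out, with adjusted p-values of 0.0859, 0.0868, 0.0776 and 0.0596, and when only the compared groups were fitted (adjusted p = 0.0702). Summed Kupffer cell and macrophage markers were 63.4 to 74.3 RPKM in unfed PBS livers, below every fed PBS liver, and their part was not tested. In fed obese mice Pdk1 stood at 14.5, 14.7 and 15.5 RPKM, below fed lean mice at 28.1, 22.6 and 21.8. That difference, -0.67 ± 0.24, did not pass (adjusted p = 0.170, limma). Summed hepatocyte markers were 43624 to 46299 RPKM in fed obese and 53590 to 57736 in fed lean mice. Stellate cell markers were 57.9 to 69.4 and 42.2 to 57.7. Neither overlapped, and their part was not tested. Unfed obese mice had 32.7, 19.8 and 17.5 RPKM, all above the fed obese mice, and the meal difference there was -0.58 (adjusted p = 0.164). In the NRF experiment Pdk1 stood at 19.3 and 19.7 RPKM at ZT10 and at 14.1 in both unfed ZT14 mice, a difference of -0.46 ± 0.09 with an adjusted p of 0.0237 against the threshold of 0.01. In the GR knockout the CRE livers had 25.4, 25.3, 17.6 and 15.5 RPKM and the GFP livers 15.6, 14.6, 17.3 and 9.61, which overlapped (0.54 ± 0.20, adjusted p = 0.160, limma).

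Pdk2 (NM_133667, mm9 chr11:94887572-94902668, minus strand), a widely expressed kinase gene and here the kinase gene of highest mean RPKM in every experiment with poly(A) selection, followed the library series in the injected mice. Replicate 4 of the 5 groups stood at 59.8 to 69.7 RPKM and replicates 1 to 3 at 28.9 to 47.4, with no overlap. Fed PBS mice had 28.9, 31.1, 37.5 and 63.8 RPKM and fed DEX mice 45.7, 46.6, 39.2 and 69.7. The DEX difference was 0.36 ± 0.25 and did not pass in the fit without the series (adjusted p = 0.488, limma). With the series as a term it was 0.36 ± 0.11 and passed (adjusted p = 0.0414, limma), and in replicates 1 to 3 alone, where the DEX mice lay wholly above the PBS mice, it was 0.43 ± 0.11 (adjusted p = 0.0325). With DEX+S961 the mice had 43.2, 47.4, 41.4 and 64.5 RPKM, and the adjusted p was 0.449 without the series, 0.0344 with it as a term and 0.0237 in replicates 1 to 3 alone. In obese mice Pdk2 stood at 56.3, 59.5 and 55.7 RPKM unfed and 47.4, 37.6 and 43.2 fed, with no overlap, a difference of -0.42 that did not pass (adjusted p = 0.0715, limma). In lean mice the same comparison gave -0.29 ± 0.13 (adjusted p = 0.129). In the NRF libraries Pdk2 stood at 5.26 to 8.27 RPKM, below all libraries of the other 4 experiments, which began at 28.9, and the experiment and the ribosomal depletion cannot be told apart.

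**Figure D3:**
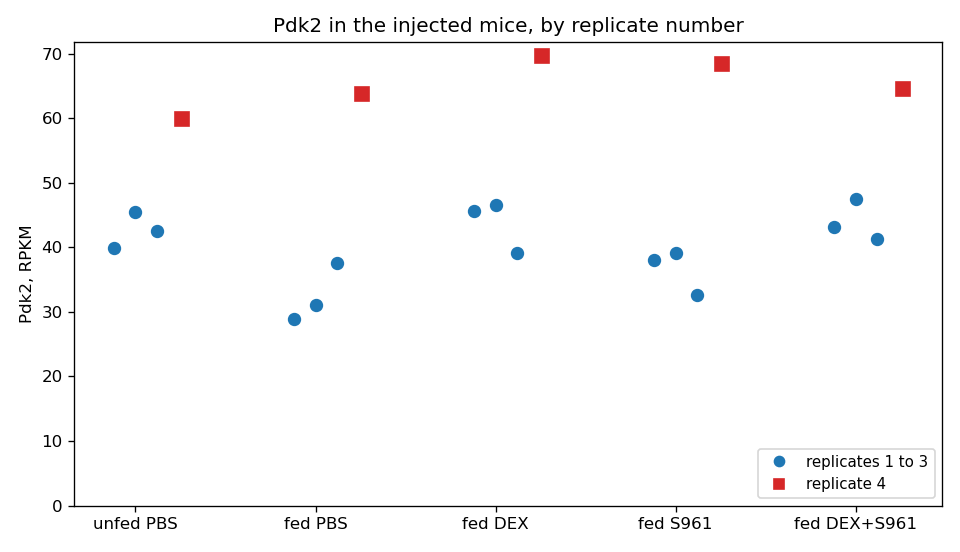
Pdk2 in the injected mice as RPKM, with 1 point for each mouse in the 5 groups along the horizontal axis, circles for replicates 1 to 3 and squares for replicate 4. All squares lie at 59.8 RPKM or higher and all circles at 47.4 or lower.

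Pdk3 (NM_145630, mm9 chrX:91009946-91077540, minus strand), a kinase gene with high expression in testis, was near the bottom of the scale. Its highest value was 1.10 RPKM, in IRSdKO replicate 1, and the other libraries reached at most 0.625. It was listed at 0 in 1 DEX and 1 DEX+S961 library. No difference was tested.

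Pdp2 (NM_001024606, mm9 chr8:107115368-107120736, plus strand), the phosphatase gene that liver is known to express, was the counterpart present at a measurable level. Unfed lean mice had 11.2, 14.4 and 14.3 RPKM and fed lean mice 7.27, 6.38 and 8.08, with no overlap. The endothelial, stellate and cholangiocyte markers given above for Pdk4 were apart in the same comparison, and their part was not tested. The difference was -0.83 ± 0.23 [-1.33, -0.33], with an adjusted p of 0.0232 against the threshold of 0.01, and it passed without unfed DIO replicate 1 (adjusted p = 0.00536, limma). Of 12 fits with a library left out, it passed in that 1. In obese mice the groups overlapped, with 7.45, 13.4 and 13.2 RPKM unfed and 13.5, 10.8 and 7.995 fed, and the difference between the diets in the meal effect was 0.77 ± 0.32 (adjusted p = 0.296). With S961 the fed mice had 10.8, 16.0, 7.80 and 16.9 RPKM against 6.00, 6.77, 8.08 and 11.0 with PBS, a difference of 0.63 ± 0.22 that did not pass (adjusted p = 0.160, limma). It passed with the series term (adjusted p = 0.0488) and without S961 replicate 3 (0.84, adjusted p = 0.0389). Of 20 fits with a library left out, it passed in that 1. With DEX+S961 the value was 0.52 (adjusted p = 0.134), and 0.0458 was its adjusted p with the series term. In IRSdKO, where Pdk4 lay above IRSfl, Pdp2 stood at 22.8, 14.4, 16.2 and 19.1 RPKM, within reach of the 16.0, 23.0, 20.7 and 20.2 in IRSfl.

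Pdp1 (NM_001033453, mm9 chr4:11885331-11893599, minus strand), the calcium-stimulated phosphatase gene of muscle and other tissues, ranged from 0.059 to 0.788 RPKM. Of its 5 transcripts in the table this was the one with the highest mean. No difference was tested.

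Pdha1 (NM_008810, mm9 chrX:156560141-156576345, minus strand), the X-linked gene of the subunit that kinases and phosphatases act on, rose in IRSdKO. IRSdKO mice had 84.2, 110.2, 111 and 104 RPKM and IRSfl mice 83.7, 70.4, 76.5 and 75.6, so that the groups were apart by a narrow margin. The difference was 0.41 ± 0.10 [0.19, 0.63] (adjusted p = 0.0235, limma). It missed the threshold on leaving out IRSfl replicate 2, 3 or 4 or IRSdKO replicate 2, 3 or 4, with adjusted p-values of 0.0609, 0.0516, 0.0568, 0.0738, 0.0700 and 0.0657. In each of the NRF, injected, GR knockout and obesity experiments Pdha1 had the narrowest range of the 7 genes, with a highest library 1.13 to 1.48 times the lowest. In fed DEX mice it stood at 42.2, 45.6, 46.7 and 47.8 RPKM and in fed PBS mice at 60.2, 51.9, 53.6 and 40.7, which overlapped.

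Of the carrier genes, Mpc2 (NM_027430, mm9 chr1:167391168-167411345, plus strand, Brp44 in that annotation) rose in IRSdKO. IRSdKO mice had 131, 148, 163 and 148 RPKM and IRSfl mice 132, 118, 119 and 124, which overlapped by 1 library. The difference was 0.26 ± 0.08 [0.09, 0.43] (adjusted p = 0.0464, limma), and it missed the threshold on leaving out any of IRSfl replicates 1 to 4 or IRSdKO replicates 2 to 4, with adjusted p-values from 0.0527 to 0.113. With DEX+S961 Mpc2 stood at 107, 106, 113 and 93.0 RPKM against 92.3, 95.7, 85.4 and 72.6 in fed PBS mice. That difference, 0.28 ± 0.10, did not pass (adjusted p = 0.0767, limma) but did with the series term (adjusted p = 0.0267) and when libraries were scaled by median ratios (0.43, adjusted p = 0.00760), a scaling that moved the median of all genes in this comparison from -0.14 to about 0. In the GR knockout the CRE livers had 144, 155, 160 and 121 RPKM and the GFP livers 101, 97.2, 135 and 93.4. The difference of 0.45 ± 0.13 did not pass (adjusted p = 0.0753, limma), and it did without GFP replicate 3 (0.57, adjusted p = 0.0198) or CRE replicate 4 (0.53, adjusted p = 0.0457). Of 8 fits with a library left out, it passed in these 2.

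Mpc1 (NM_018819, mm9 chr17:8475769-8490526, plus strand, Brp44l in that annotation) showed its highest levels in the receptor knockout experiment, in both groups. CRE livers had 90.8, 93.0, 81.8 and 85.0 RPKM and GFP livers 69.8, 63.4, 80.8 and 61.7, with no overlap. The difference was 0.35 ± 0.10 [0.13, 0.57] and did not pass (adjusted p = 0.0665, limma), though it did without GFP replicate 3 (0.43, adjusted p = 0.0271). Of 8 fits with a library left out, it passed in that 1. Erythroid markers also differed there, at 454 to 893 RPKM summed over the list with CRE and 307 to 401 with GFP, and their part was not tested. Every library of the other 4 experiments had 7.30 to 31.1 RPKM of Mpc1, below each of the receptor knockout experiment, while Mpc2 there (93.4 to 160 RPKM) overlapped the other experiments. In PBS-injected mice Mpc1 stood at 15.9, 15.4, 13.2 and 21.6 RPKM unfed and 10.2, 11.99, 11.95 and 12.6 fed, with no overlap, and the difference of -0.46 ± 0.26 did not pass (adjusted p = 0.337, limma). The Kupffer cell and macrophage markers given above for Pdk1 were apart in the same comparison, and their part was not tested.

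**Figure D4:**
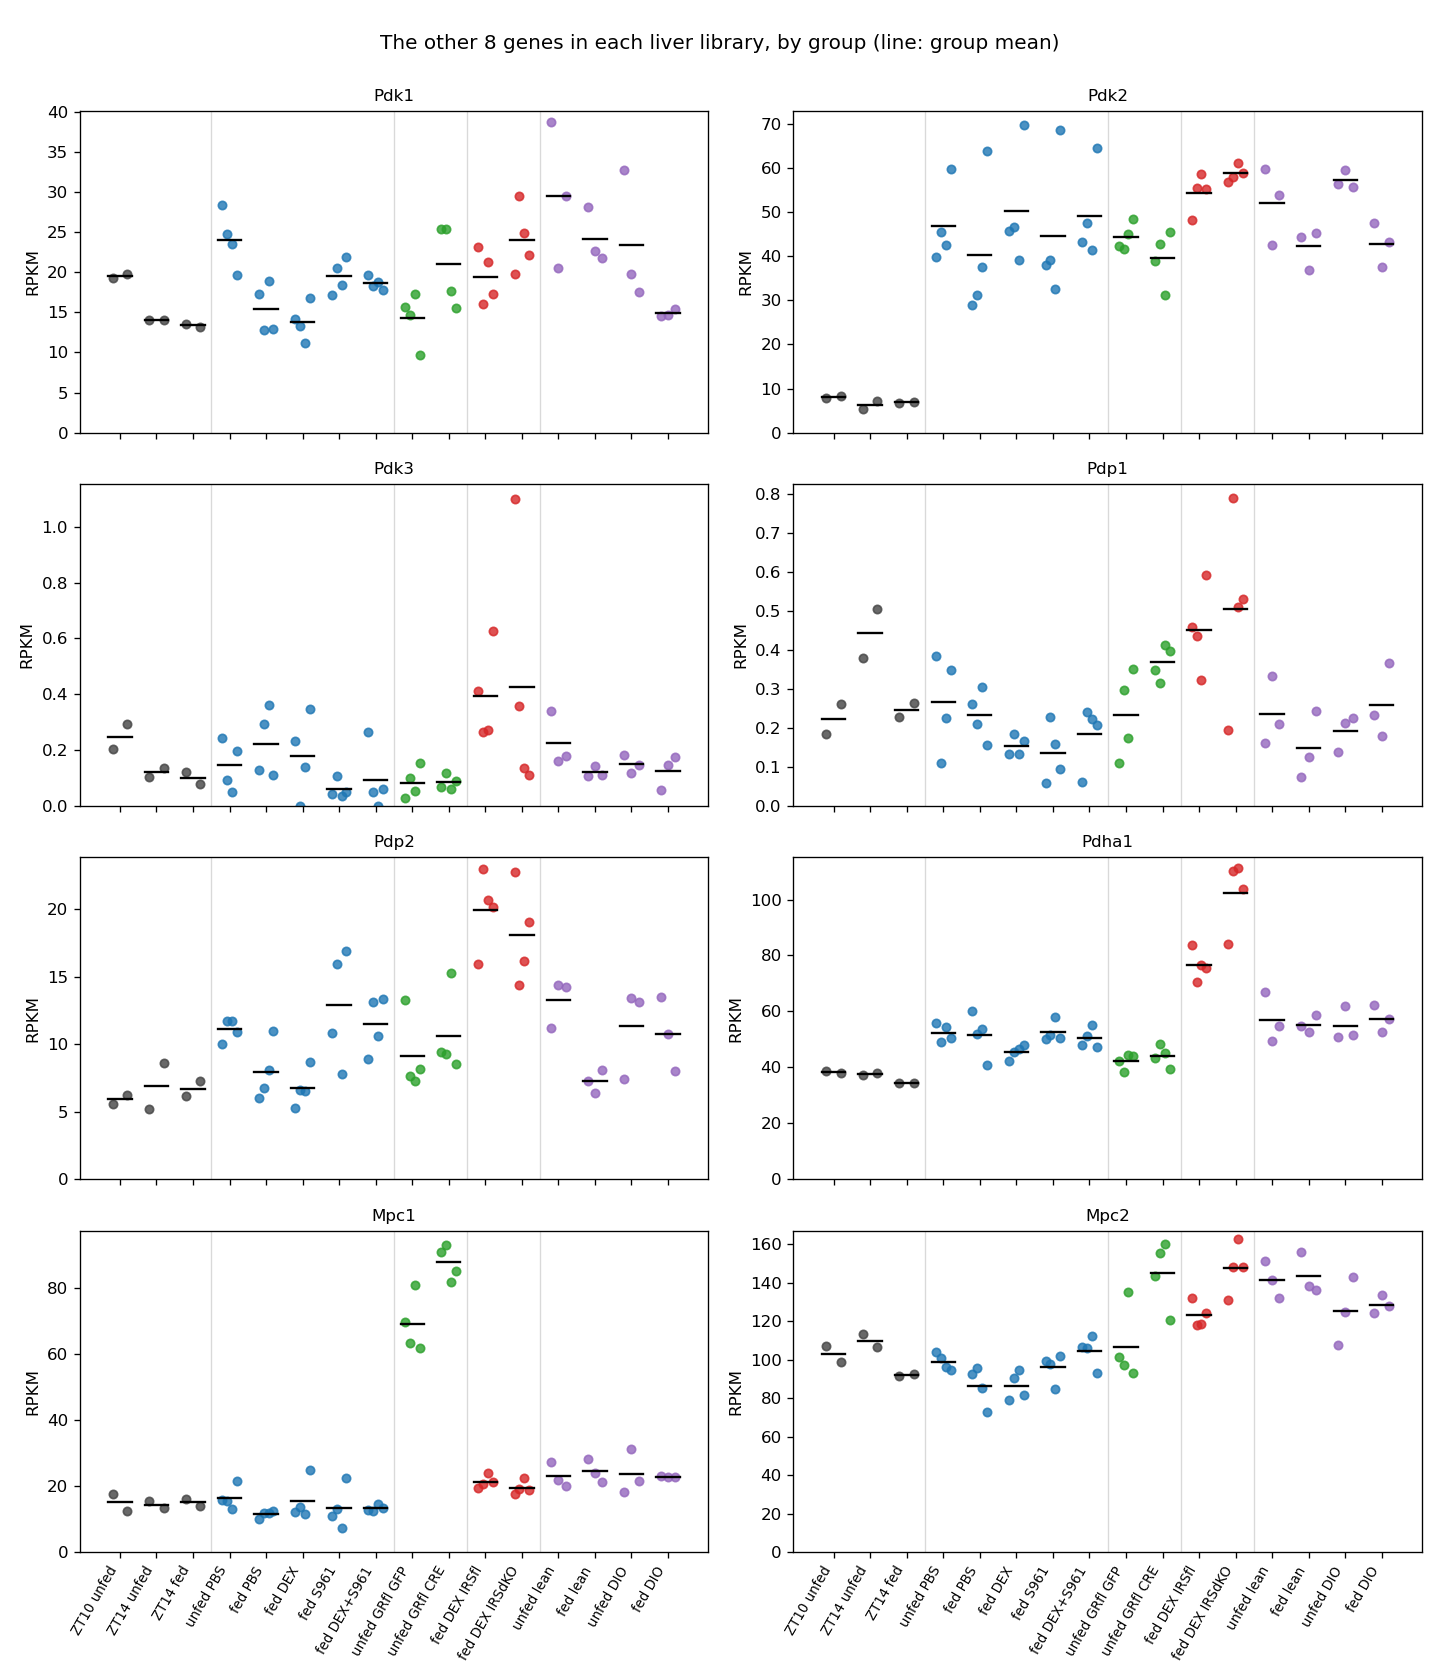
The other 8 genes in every library, 1 panel a gene, as RPKM, with the 16 groups along the horizontal axis and 1 point for each mouse. Mpc1 stands at 61.7 to 93.0 RPKM in the GR knockout experiment and at 7.30 to 31.1 elsewhere, and Pdk2 at 5.26 to 8.27 in the NRF experiment.

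The binding data ask where GR and FOXO1 sat near these genes in unfed livers. The lists hold 10446 GR peaks, 8546 FOXO1 peaks and 83592 DNase hypersensitive sites (DHS, open chromatin, from fed and unfed reads together), from chromatin of pooled livers. By the study's methods, a GR or FOXO1 peak is listed where it was found in both of a pair of replicates, and the lists give positions only, so no spread between replicates can be given for a peak. Within 50 kb of the start site, 4 of the 9 genes had a GR peak (Pdk2, Pdk4, Mpc1 and Mpc2) and 7 a FOXO1 peak (all but Pdk3 and Pdha1), and all 9 had a DHS. Over all 22121 genes with a position the shares were 33.6%, 35.4% and 88.4%, and over the 10227 expressed ones 48.5%, 51.7% and 99.8%. Within 1 kb none of the 9 had a GR peak (6.05% of expressed genes did) and 4 had a FOXO1 peak, Pdk1, Pdk2, Pdk4 and Pdp2 (13.1% of expressed genes did). These are counts of 9 genes beside the background and were not tested.

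Pdk4 had the most peaks of the 2 factors together, 6 of GR and 5 of FOXO1, and Mpc2 also had 5 of FOXO1. As many or more were found at 2.63% of expressed genes for GR and 2.79% for FOXO1. A FOXO1 peak lay 320 bases upstream of its start and another 2517 bases upstream, both intergenic and both in a DHS. The first is the sequence shown above with the FOXO core in capitals, which 18.8% of all FOXO1 peaks and 4.36% of DHS held. The GR peaks nearest upstream lay 13838 and 14756 bases away in intergenic sequence, outside listed DHS, and the farther one held 2 half-sites, while 27.7% of all GR peaks held at least 1. Downstream, GR and FOXO1 peaks overlapped by at least 1 base at 3 places, with GR centres 11156, 25181 and 46278 bases from the start, each in a DHS. The first of these is in a UTR exon of Pdk4 and the others are intergenic. None of the 11 peaks of Pdk4 held the GR palindrome GNACANNNTGTNC, which 7.80% of all GR peaks held.

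**Figure D5:**
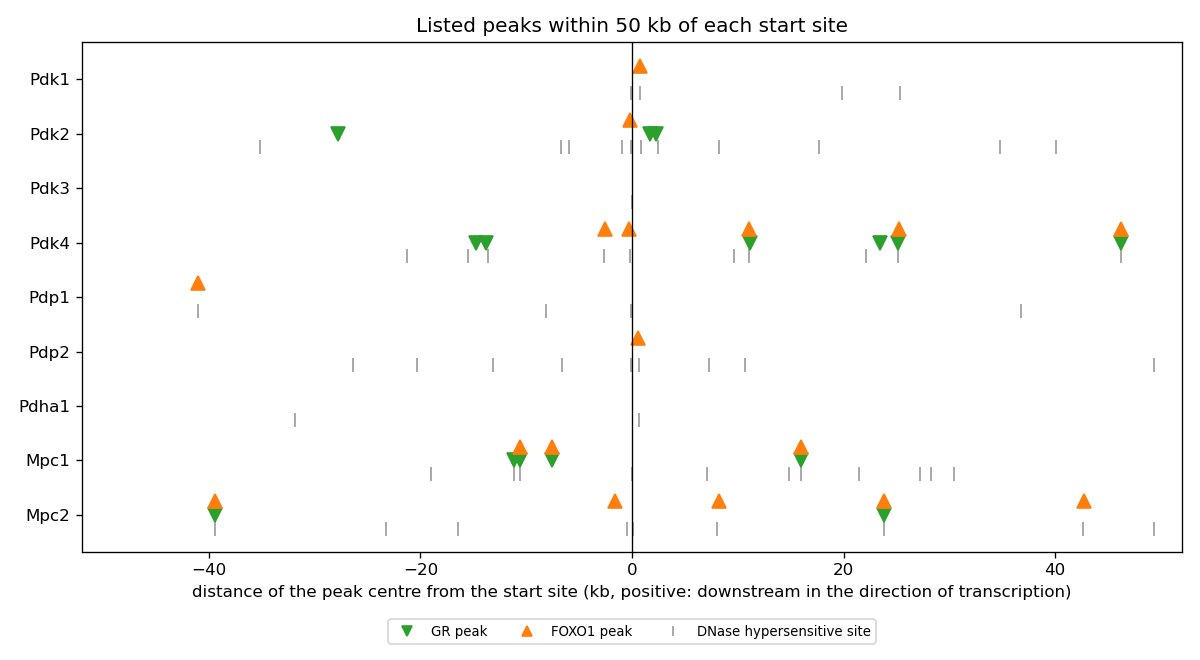
Centres of GR peaks, FOXO1 peaks and DHS within 50 kb of the start site of each of the 9 genes, as distance in kb along the direction of transcription. Pdk4 has 6 GR and 5 FOXO1 peaks, 3 of them at shared places downstream, and Pdk3 and Pdha1 have neither.

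Pdk2 had 3 GR peaks and 1 FOXO1 peak at separate places. GR centres lay 1675 and 2272 bases downstream in an intron of Pdk2, and the other lay at -27757 bases in a UTR exon of Itga3, whose own start is nearer. The peak in Itga3 held 1 GR palindrome. The FOXO1 peak lay 176 bases upstream, in a DHS. Mpc1 had 4 GR peaks, of which 3 overlapped its 3 FOXO1 peaks, with GR centres 7564 and 10617 bases upstream and 15941 bases downstream, the last nearer to 4930506C21Rik. Mpc2 had 2 GR peaks, both shared with FOXO1, and 5 FOXO1 peaks. At both shared places the start of a neighbour, Adcy10 or Dcaf6, was nearer than its own. The same held for its FOXO1 peaks at -1616 and 42746 bases. Pdk1 had a FOXO1 peak 776 bases downstream in an exon and Pdp2 one 608 bases downstream in an intron. Pdp1 had one at -41047 bases, slightly nearer to the start of 1700123M08Rik. Over all members, 8 of 15 GR peaks overlapped a FOXO1 peak (48.8% of all GR peaks did) and 8 of 17 FOXO1 peaks a GR peak (59.7% of all FOXO1 peaks did). A DHS overlapped 8 of the 15 GR peaks and 15 of the 17 FOXO1 peaks, against 81.6% and 84.9% of the whole lists.

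Other genes of the pathway moved in few comparisons. Of 9 genes for the remaining complex and its cofactors, passes came only in IRSdKO, with 2 up and 2 down (list median -0.01, 0.03 over all genes), and after the meal in lean mice, with 1 up and 1 down (0.11, 0.08 over all genes). In IRSdKO, Dlat, the acetyltransferase core, rose by 0.49 (adjusted p = 0.0211, limma), while Pdhx, the dihydrolipoamide dehydrogenase binding protein, fell by 0.45 (adjusted p = 0.0396) and Sirt4, a mitochondrial sirtuin, fell by 0.52 (adjusted p = 0.0453). In lean mice, Pdpr, the regulatory subunit of the phosphatase, fell by 0.50 after the meal (adjusted p = 0.00628) and Lipt1, a lipoyltransferase, rose by 0.71 (adjusted p = 0.00134).

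Among 14 genes that supply or use pyruvate, 13 were tested. In IRSdKO 3 rose and 4 fell (median 0.07, 0.03 over all genes): Ldhb, a lactate dehydrogenase subunit, rose by 2.46 (adjusted p = 0.0192, limma), Me2, the mitochondrial malic enzyme, rose by 1.51 (adjusted p = 0.00734), and Pklr, the liver pyruvate kinase, fell by 1.00 (adjusted p = 0.0136). With DEX+S961 2 rose (median 0.11, -0.14 over all genes), Gpt2, an alanine aminotransferase, by 0.54 and Pcx, pyruvate carboxylase, by 0.38 (adjusted p = 0.01197 and 0.0468). In the GR knockout 2 rose (median 0.15, 0.08 over all genes), the malic enzyme Me1 by 0.65 and the monocarboxylate carrier Slc16a1 by 0.49 (adjusted p = 0.0170 and 0.0460). After the meal in lean mice 2 rose (median 0.09, 0.08 over all genes), Mpst, a mercaptopyruvate sulfurtransferase, by 0.86 and Slc16a1 by 0.67 (adjusted p = 0.00107 and 0.00193).

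The branched-chain ketoacid dehydrogenase is a sister complex with a kinase and phosphatase of its own. Of its 5 genes, the phosphatase Ppm1k passed in 6 comparisons. Its mean level fell from 14.3 to 8.21 RPKM after the meal in PBS-injected mice (-0.76, adjusted p = 0.0316, limma) and from 16.0 to 5.89 in lean mice (-1.37, adjusted p = 0.00268). Against the same 8.21 RPKM in fed PBS mice it rose to 14.6 with S961 (0.82, adjusted p = 0.0254) and to 13.4 with DEX+S961 (0.68, adjusted p = 0.0235). It also rose in the GR knockout (0.80, adjusted p = 0.00463) and in IRSdKO (0.77, adjusted p = 0.0138), and in IRSdKO the kinase Bckdk (0.54, adjusted p = 0.0394) and the enzyme subunit Bckdhb (0.53, adjusted p = 0.00204) rose with it. The list median in IRSdKO was 0.53, against 0.03 over all genes. In the other 5 comparisons with a pass this was the sole gene of the list.

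At the entry to the citrate cycle, of 7 genes 3 rose and 1 fell in IRSdKO (median 0.17, 0.03 over all genes), among them the dehydrogenase subunits Idh3a (0.46, adjusted p = 0.0124, limma) and Ogdh (0.39, adjusted p = 0.00530), up, and the citrate carrier Slc25a1 (-0.63, adjusted p = 0.0112), down. Citrate synthase, Cs, fell with DEX+S961 (-0.34, adjusted p = 0.0377) and Idh3a rose after the meal in lean mice (0.59, adjusted p = 0.00248).

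Of 11 receptors and factors known to act on Pdk4, the coactivator gene Ppargc1a rose with DEX (0.96, adjusted p = 0.00148, limma), with S961 (0.81, adjusted p = 0.00922), with DEX+S961 (1.08, adjusted p = 0.000230) and in IRSdKO (2.18, adjusted p = 0.00204), and fell after the meal in lean mice (-1.90, adjusted p = 0.000825). Foxo1 rose with DEX (0.42, adjusted p = 0.0121) and with DEX+S961 (0.66, adjusted p = 0.000172). Irs2 fell after the meal in the NRF (-1.98, adjusted p = 0.00184), PBS-injected (-1.41, adjusted p = 0.0350) and lean mice (-1.72, adjusted p = 0.00183). After the meal in lean mice 5 of the 11 fell, with a median of -0.52 against 0.08 over all genes, and Foxo3 was among them (-1.33, adjusted p = 0.000340). Irs1 fell with DEX+S961 (-0.86, adjusted p = 0.00215). Besides the targeted genes, Nr3c1 (-1.58, adjusted p = 6.83e-05) in the GR knockout and Irs1 (-2.66, adjusted p = 0.000916) in IRSdKO, no other gene of the list passed in the GR knockout, and in IRSdKO only Ppargc1a did.

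The genes whose pattern was most like that of Pdk4 were listed after its values had been seen. Over the 54 libraries, with each experiment centred on its own mean and 10521 genes compared, Pearson's r of log2(RPKM + 0.5) with Pdk4 was 0.88 for Txnip, a thioredoxin-binding arrestin that restrains glucose uptake, 0.88 for Gm15441, 0.82 for Ackr2, a chemokine-scavenging receptor, 0.82 for Slc22a5, the carnitine transporter, and 0.81 for Ppp2r2d, a regulatory subunit of protein phosphatase 2A. Gm15441 overlaps Txnip on the opposite strand, and reads of the pair may not have been told apart. These correlations are descriptions, over libraries that share experiments and normalization. Mean Txnip was 23.5 RPKM in fed PBS mice, 16.4 with DEX, 126 with S961, 80.3 with DEX+S961, 41.4 in IRSfl and 231 in IRSdKO, and 75.1 in unfed and 16.4 in fed lean mice. Mean Pdk4 differed from it in the order of these groups: 0.949 RPKM with DEX was above the 0.634 with PBS, and 8.53 with DEX+S961 above the 5.92 with S961. The libraries of each pair overlapped, and 1 DEX+S961 library stood at 22.3 RPKM. Median Pdk4 was 5.00 RPKM with DEX+S961, below the 6.19 with S961, and 0.9115 with DEX, above the 0.6335 with PBS. Among the members, r with Pdk4 was 0.53 for Mpc2, 0.51 for Pdha1, 0.48 for Pdp2, 0.30 for Pdk1, 0.12 for Pdk2 and 0.06 for Mpc1.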

How the data were processed

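RNA-seq levels were measured in mouse liver and peaks in pooled liver chromatin. The authors mapped reads to mm9 and deposited one table of RPKM per RefSeq transcript (35707 transcripts, 24312 symbols) and peak lists with positions. The submitters' processing notes name STAR, HOMER and DESeq2, and the annotation behind the counting, and whether it used strand, are not given in the sources used here. All 54 value columns were used and 0 were left out. Since RPKM are not counts, log2(RPKM + 0.5) was fitted for genes whose mean reached 0.5 RPKM in limma 3.58.1 (R 4.3.3), one fit per experiment with all its groups, moderated with a variance trend, and tested on simulated data. P-values are two-sided and adjusted by Benjamini-Hochberg over all genes tested. Start sites came from GENCODE vM1 on mm9. A start was the 5′-most one of transcripts with a consensus coding sequence, and peaks were assigned within 50 kb of it, whichever gene was nearest. All 9 members are named in every comparison, and for each pathway list at most the 3 passing genes of largest change. The members and lists were chosen with earlier results of these data known. Alternatives covered the pseudocount, the low-value filter, scaling, all transcripts, the variance trend, a replicate block, the library series, the groups fitted, the threshold, each library left out, and the peak window. Figures used matplotlib 3.10.9. Read totals are not in the RPKM table, and the reads per library that the study lists were not used, so precision rests on the spread between libraries.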

Additional observations from a re-analysis of the deposited data

Results flagged for a closer look

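The 81 sets checked were each 1 gene in 1 group of 4 libraries. In 4 of them the gap of a library to its neighbour, over the range of the set, exceeded Dixon's 95% critical value. Chance gives about 1 in 20 for independent sets, and these share libraries. Pdk4 stood at 8.296 RPKM in 1 CRE liver (others 1.436 to 1.855). Pdp2 stood at 13.274 in 1 GFP liver (others 7.305 to 8.203) and at 15.295 in 1 CRE liver (others 8.55 to 9.416). The CRE liver was replicate 3 for both genes. Mpc1 stood at 24.789 in fed DEX replicate 4 (others 11.688 to 13.828).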

How the results depend on the processing

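Counts are of the 7 tested members that passed. The number of all genes passing changed with these settings too, over the ranges given below, so the counts do not describe the members alone. With time without food, 0 passed, 1 at a threshold of 0.05, and 0 to 1 with a library left out, as for the NRF meal. After the meal in PBS mice 1 passed, 0 when only the compared groups were fitted or at a threshold of 0.01, and 0 to 1 with a library left out. With DEX, 0 became 1 with the library series term or in replicates 1 to 3 alone, added after seeing the data. With S961, 0 became 1 at a pseudocount of 0.1 and 2 with the series term, and was 0 to 1 with a library left out. With DEX+S961, 1 became 2 under median-ratio scaling or in replicates 1 to 3 alone and 4 with the series term. In the GR knockout 0 to 2 passed with a library left out. In IRSdKO 3 became 1 at a threshold of 0.01, and 1 to 3 with a library left out. After the meal in lean mice 0 became 2 with the compared groups alone or at a threshold of 0.05, and 0 to 2 with a library left out. The Pdk4 difference of the DEX effect with and without S961 (-0.02) turned to 0.042 at a pseudocount of 1 and 0.47 in replicates 1 to 3 alone, and ran from -0.64 to 0.46 with a library left out. The Pdk4 meal difference in obese mice ran from -0.92 to 0.21. The causes were not tested.

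Replicate numbers were not treated as pairs, since no comparison had all same-numbered correlations over 0.1 (they ran from -0.201 to 0.605). Some were high in the injected mice, up to 0.507 for the meal and 0.605 with S961, so shared variation by number is not excluded there. With the numbers as a block, 2 members passed with S961, 4 with DEX+S961, 1 in the GR knockout and 1 in IRSdKO, and no other count of members moved. With that block the number of all genes passing also moved, in 10 of the 14 comparisons.

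Genes passing, over the alternatives at the same threshold and without leaving out libraries, ran from 2 to 332 with time (127 in the fit reported), 16 to 247 for the NRF meal (108), 221 to 1036 for the PBS meal (352), 87 to 1096 with DEX (359), 24 to 478 with S961 (214), 772 to 2204 with DEX+S961 (1193), 0 to 4 for their difference (0), 466 to 1351 in the GR knockout (778), 1444 to 3864 in IRSdKO (2253), 769 to 1946 for the lean meal (1169), 0 to 243 for the obese meal (140), 5 to 156 for unfed obese mice (88), 0 to 93 for fed obese mice (0) and 1 to 19 for the meal effect between diets (15). Read counts behind the RPKM were not analysed here.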
